A study of Homo sapiens with 6 samples.

Results

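Peaks of histone lysine acetylation (Kac) and lysine benzoylation (Kbz) were examined at 10 genes of the endoplasmic reticulum (ER) stress and amino acid response: HSPA5, HERPUD1, XBP1, ATF4, DDIT3, ASNS, CHAC1, TRIB3, SESN2 and DDIT4. They are 10 of 62663 annotated genes, of which 20033 are protein-coding, and they were picked by name for their function, with no peak value in the rule. Earlier results of these data were known when they were picked. A peak was counted for a gene when it overlapped the gene body extended by 5 kb on either side, hereafter the window. The data come from HepG2, a cell line derived from a human liver tumour, either untreated (control) or given sodium benzoate (SB, 10 mM, 24 h). SB is a food preservative and a source of benzoyl-CoA. For each condition there was 1 input, 1 Kac and 1 Kbz ChIP-seq library, 6 libraries in all, made from chromatin cut with micrococcal nuclease. Both antibodies were pan antibodies, which recognise the modified lysine whatever protein surrounds it, so neither the histone nor the residue that carried a mark is known. The peak lists of control Kac (70326 peaks), SB Kac (63282 peaks) and SB Kbz (24308 peaks) were compared. Per the labels, peak calling found nothing in control Kbz, so Kbz has no untreated list to be set against, and the inputs were not analysed here. With 1 library per group there was no replicate error and no test, and the depth of the libraries is unknown. Differences between lists below are therefore differences between single libraries.

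ER stress arises when unfolded proteins build up in the ER, and is sensed by PERK, IRE1 and ATF6. PERK, and GCN2 when amino acids are short, phosphorylate the initiation factor eIF2, which lowers general translation while favouring that of ATF4. ATF4, XBP1 and ATF6 then bind defined elements near the start sites of chaperone, degradation and amino acid genes. Histone lysine acylation, of which acetylation is the best known form, is generally found at promoters and enhancers in use.

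The cell line label was set beside cell type markers. Of 12 liver genes, 5 had a promoter peak in control Kac and 6 in SB Kac, and 2 in Kbz, and ALB, APOB, FGB, FGG and FOXA2 had no peak in their window in any list. Of 7 genes of kidney development, 7 had a promoter peak in each list. Of 4 neuronal genes 1, 2 and 1 had one, and of 5 blood genes 2 in each list. By the same rule 76.5%, 75.7% and 64.6% of protein-coding genes had a promoter peak, so the count for kidney development is little above the background while that for liver is below it. The results below therefore describe libraries labelled HepG2 in which several defining liver genes carried no peak.

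Matches to the elements that the stress factors bind are shown first because they place the peaks relative to known regulatory sequence. Matches were searched on both strands in the Kbz peak over each transcription start site (TSS). The motifs were the composite element bound by ATF4 with C/EBP proteins (TGATGNAA, strict form TGATGCAA), the ER stress response elements ERSE (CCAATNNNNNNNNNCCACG) and ERSE-II (ATTGGNCCACG), and the unfolded protein response element UPRE (TGACGTGG). The strict form is contained in the composite element, and ERSE and ERSE-II share the letters CCACG. Since only Kbz peaks were searched, each match is under Kbz by construction, and nearly all Kbz bases of these genes were also under Kac. Each line gives 30 bases of hg38 around a match, 5′ to 3′ on the strand that reads as the motif, with the match in capitals.
HSPA5 ERSE, minus strand: ccttcaCCAATCGGCGGCCTCCACGacggg
XBP1 ERSE, minus strand: cgctggCCAATCGCGGAGGGCCACGaccgt
HERPUD1 ERSE-II, plus strand: cggacgccgATTGGGCCACGttgggagagt
HERPUD1 composite element, minus strand: tgggcacgggcTGATGCAAcccgccgcgtc
DDIT3 composite element, plus strand: gggggcggggaTGATGCAAtgtttggcaac
ASNS composite element, minus strand: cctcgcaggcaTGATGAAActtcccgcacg
CHAC1 composite element, minus strand: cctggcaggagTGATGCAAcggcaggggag
TRIB3 composite element, minus strand: cccggtccgggTGATGCAAaccggagctaa
SESN2 composite element, minus strand: cggctgccagtTGATGCAAcccgggtcccg
DDIT4 composite element, plus strand: gtcctcggtccTGATGCAAccgtctggatc

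The HSPA5 site was at chr9:125241386-125241415 and the XBP1 site at chr22:28800598-28800627, both just upstream of the gene, with the ERSE match from 66 to 48 bp and from 52 to 34 bp before the TSS. In HERPUD1 the ERSE-II site (chr16:56932016-56932045) and the composite site (chr16:56931955-56931984) were both upstream, with the matches starting 117 and 176 bp before the TSS, and a second strict match to the composite element lay in an intron, 1366 bp after the TSS. The DDIT3 site (chr12:57520802-57520831) was in an intron of a longer DDIT3 transcript and also inside MBD6, a gene on the opposite strand. The ASNS site (chr7:97872458-97872487) and the CHAC1 site (chr15:40953251-40953280) were upstream of the canonical TSS, in an exon of another transcript. The TRIB3 sequence occurred 3 times with the same 30 bases, spaced 33 bp apart, at chr20:380881-380910, chr20:380914-380943 and chr20:380947-380976 in an exon of the canonical transcript. The SESN2 site (chr1:28260059-28260088) was in an intron, with the match 552 bp after the TSS, and a further match to the looser form lay upstream. The DDIT4 site (chr10:72272967-72272996) was upstream, with the match 946 bp before the TSS, and was the one strict form among 4 matches. The Kbz peak over the TSS of ATF4 held no match to any of the motifs, and UPRE matched in none of the 10 such peaks. The rest of each gene was not searched in this way.

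In HERPUD1 both element types stood in 1 short stretch, taken from the RefSeq promoter sequences (GRCh38.p14, chr16:56931941-56932060, plus strand) and outside annotated exons. The capitals mark the composite element, read here on the opposite strand, and then ERSE-II.
HERPUD1: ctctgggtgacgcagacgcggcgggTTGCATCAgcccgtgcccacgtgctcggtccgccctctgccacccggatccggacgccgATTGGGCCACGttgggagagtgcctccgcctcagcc

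The composite element matched in 7 of the 10 Kbz peaks over a TSS, against 16.5% of 7987 such Kbz peaks over protein-coding genes. Per length this was 5.30 matches per 10 kb in these peaks and 0.937 per 10 kb in all. Of the 14 matches in these peaks, several were the repeated TRIB3 sequence or lay at DDIT4. Searching the Kbz peaks was chosen after the data had been seen, and the narrower promoters below were the planned search. The strict form of the composite element matched in 6 of 10 Kbz peaks against 3.62%, ERSE in 2 of 10 against 0.2504%, ERSE-II in 1 of 10 against 0.188%, and UPRE in 0 of 10 against 3.97%. Several of these genes are textbook targets of ATF4 and of the ER stress factors, so their matches are no independent finding, and a match is not evidence of binding. In the narrower RefSeq promoters, from 250 bases before to 50 after a start, the composite element matched HERPUD1, ASNS and CHAC1, 3 of 10 genes, against 3.62% of 35116 promoters. The strict form matched HERPUD1 and CHAC1 (0.866% of promoters), ERSE matched HSPA5 and XBP1 (0.0769%), ERSE-II matched HERPUD1 (0.0541%) and UPRE matched none (0.729%). For TRIB3 the RefSeq promoter (chr20:381045-381344) lay downstream of the canonical TSS. The exonic composite elements of TRIB3 were upstream of that promoter and so outside it. The promoters of the 10 genes had a median GC content of 66.2%, against 58.7% over all promoters. That was inside the quartiles of all promoters, 47.0% and 68.0%, and ATF4 (57.3%) alone was below their median. The median CpG observed to expected ratio of the 10 genes was 0.869 against 0.579 over all promoters, with quartiles of 0.229 and 0.856.

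All 10 genes carried Kac in control cells, Kac in SB-treated cells and Kbz in SB-treated cells directly over the canonical TSS. Peaks over the canonical TSS were found at 59.1% of protein-coding genes in control Kac and 60.4% in SB Kac, and 45.8% in Kbz, and in all 3 lists at 44.8%. Within 3 kb of any annotated start, the promoter window of the study, the 10 genes also had a peak in every list, against 76.5% in control Kac and 75.7% in SB Kac, and 64.6% in Kbz. By the wider window the background was 82.6% of genes by control Kac peaks, 81.4% by SB Kac and 72.3% by Kbz, so most coding genes have a peak there. The windows held 21 control Kac peaks, 18 SB Kac peaks and 14 Kbz peaks. Of these, 10 in each list lay over the canonical TSS and 2 in each list elsewhere within 3 kb of a start of the gene. The remainder were 5 control Kac, 3 SB Kac and 2 Kbz peaks in the gene body, and 4 control Kac, 3 SB Kac and 0 Kbz peaks in the flanks.

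**Figure D1:**
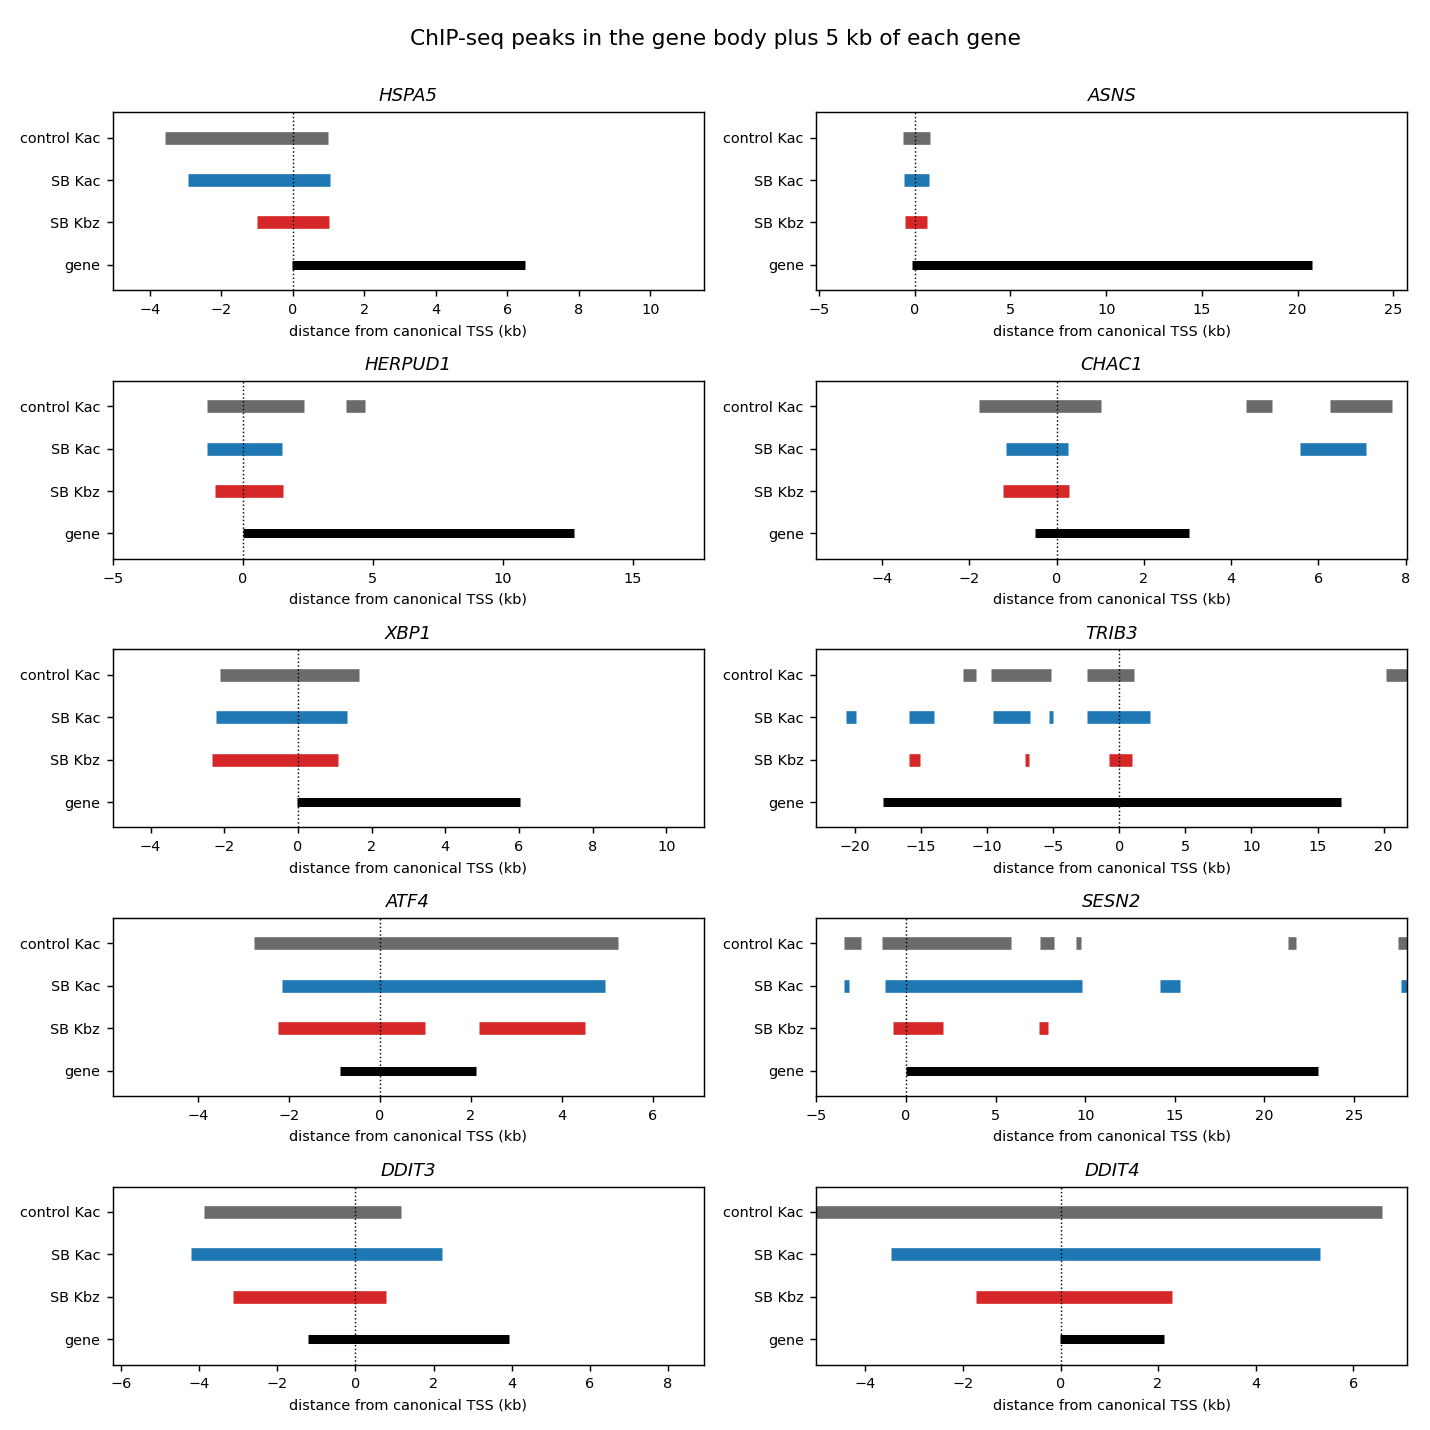
Position of every peak in the window of each gene, as distance from the canonical TSS in kb with transcription to the right, for control Kac (grey), SB Kac (blue) and SB Kbz (red), above the gene body (black). Peaks are cut at the edge of the window, as for the control Kac peak of DDIT4, and the dotted line at 0 is crossed by a peak of every list in all 10 genes.

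The strength of a peak was described by its fold, the ratio of read density to background that the peak caller gave. The fold was ranked as a percentile among all peaks of its own list, since folds of different libraries are not on 1 scale. The median percentile of the TSS peak over the 10 genes was 95.3 in control Kac and 92.3 in SB Kac, and 73.3 in Kbz. Protein-coding genes with a TSS peak had medians of 83.8 (n = 11839), 87.2 (n = 12091) and 70.8 (n = 9170), and 9, 7 and 6 of the 10 genes were above them. The distance to the coding gene median was thus largest in control Kac and smallest in Kbz. Their TSS peaks were also longer, with median lengths of 4163.5 bp in control Kac and 4382 bp in SB Kac, and 2696.5 bp in Kbz, against 2830, 2925 and 1821 bp for coding genes.

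**Figure D2:**
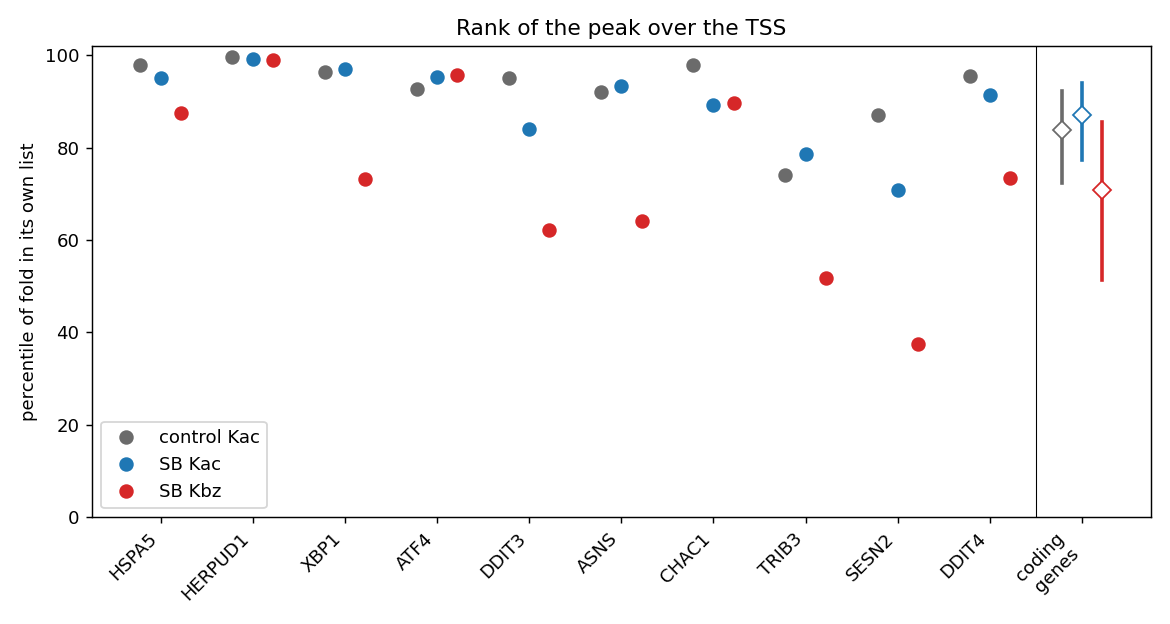
Percentile of the fold of the TSS peak within its own peak list, 1 point per gene and list, for control Kac (grey), SB Kac (blue) and SB Kbz (red), with the median (diamond) and quartiles (line) of protein-coding genes with a TSS peak at the right. HERPUD1 is near the top in all lists, whereas SESN2 is the lowest of the 10 genes in SB Kac (70.8) and SB Kbz (37.5).

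HSPA5 encodes BiP, the main HSP70 chaperone of the ER lumen and a regulator of the stress sensors. The gene lies at chr9:125234853-125241382 on the minus strand. It had 1 peak per list, each over the TSS at 125241343. The TSS peak had a fold of 5.78 (percentile 97.8) in control Kac, 5.89 (percentile 95.1) in SB Kac and 5.89 (percentile 87.5) in SB Kbz. HSPA5 thus stood among the stronger peaks of each list. The control Kac peak (chr9:125240367-125244913) was 4547 bp long, SB Kac 3968 bp and Kbz 2011 bp. All of them ended at nearly the same point inside the gene, while the Kac peaks began 3570 and 2941 bp upstream and the Kbz peak only 1000 bp upstream. The start of HSPA5-DT, a transcript divergent from HSPA5, was under the peak in each list, so the upstream part cannot be assigned to HSPA5 alone.

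HERPUD1 encodes an ER membrane protein of the degradation machinery for misfolded proteins, and lies at chr16:56932142-56944864 on the plus strand. Its TSS peak had a fold of 6.81 (percentile 99.6) in control Kac, 7.43 (percentile 99.1) in SB Kac and 8.68 (percentile 99.0) in SB Kbz. It was the highest ranked TSS peak of the 10 genes in every list. The Kbz peak (chr16:56931089-56933682, 2594 bp) was nearly as long as the SB Kac peak (2899 bp), and both were shorter than the control Kac peak (3736 bp). Control Kac had a further peak of 707 bp in the gene, over another annotated start of HERPUD1. It began 3978 bp after the canonical TSS, at percentile 45.5, with no SB Kac or Kbz peak over it.

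XBP1 encodes the transcription factor whose mRNA is spliced by IRE1, and lies at chr22:28794555-28800597 on the minus strand. At its TSS the peak had a fold of 5.43 (percentile 96.3) in control Kac, 6.33 (percentile 97.0) in SB Kac and 4.87 (percentile 73.2) in SB Kbz. The Kbz peak was thus near the coding gene median while both Kac peaks were far above it. In extent the lists hardly differed, at 3780 bp in control Kac and 3558 bp in SB Kac, and 3415 bp in Kbz (chr22:28799493-28802907). The start of a divergent noncoding transcript lay under each of these peaks.

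ATF4, the central transcription factor of the amino acid response, lies at chr22:39519695-39522683 on the plus strand. Its TSS peak had a fold of 4.94 (percentile 92.8) in control Kac, 5.90 (percentile 95.2) in SB Kac and 7.16 (percentile 95.8) in SB Kbz. ATF4 was the gene with the second highest Kbz percentile after HERPUD1. The Kac peaks covered the whole gene, with 7992 bp in control Kac and 7090 bp in SB Kac. Kbz was split into a stronger peak over the TSS (chr22:39518317-39521553) and a weaker one at the end of the gene (chr22:39522754-39525068, percentile 42.3). Counted together, these Kbz peaks covered 42.7% of the window, the largest Kbz share of the 10 genes.

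DDIT3 encodes CHOP, a transcription factor linked to cell death under lasting ER stress. It lies at chr12:57516588-57521737 on the minus strand. At its TSS the peak had a fold of 5.22 (percentile 95.03) in control Kac, 4.46 (percentile 84.0) in SB Kac and 4.37 (percentile 62.2) in SB Kbz. The SB Kac peak (6428 bp) was longer than the control Kac peak (5046 bp) and of lower rank. The Kbz peak (chr12:57519732-57523643) was 3912 bp long and lay wholly inside SB Kac. The starts of 2 other protein-coding genes, MBD6 on the opposite strand and ENSG00000285133, were under the peak in all lists, and that of MIR616 in SB Kac, so the marks at these starts cannot be told apart.

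ASNS encodes asparagine synthetase, a standard marker of amino acid shortage, and lies at chr7:97851677-97872542 on the minus strand. Its TSS peak had a fold of 4.85 (percentile 91.9) in control Kac, 5.55 (percentile 93.3) in SB Kac and 4.45 (percentile 64.0) in SB Kbz. ASNS had the shortest TSS peak of the 10 genes in each list, at 1424 bp in control Kac and 1303 bp in SB Kac, and 1199 bp in Kbz (chr7:97871744-97872942). All 3 peaks had nearly the same borders, and no other peak was in the window.

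CHAC1 encodes an enzyme that breaks down glutathione, and lies at chr15:40952962-40956512 on the plus strand. The peak at its TSS had a fold of 5.78 (percentile 97.8) in control Kac, 4.97 (percentile 89.1) in SB Kac and 6.11 (percentile 89.6) in SB Kbz. The SB Kac peak (chr15:40952307-40953729, 1423 bp) was 51.0% as long as the control Kac peak (2788 bp). CHAC1 was also the one gene whose Kbz peak at the TSS (1508 bp) was longer than the SB Kac peak. Downstream of the gene, control Kac had a peak at percentile 82.5 and SB Kac an overlapping peak at percentile 81.4, without Kbz, and a weaker control Kac peak at percentile 37.8 had no partner.

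TRIB3 encodes a pseudokinase that binds ATF4 and AKT, and lies at chr20:362835-397559 on the plus strand, with the canonical TSS inside the gene at 380760. Its TSS peak had a fold of 3.79 (percentile 74.1) in control Kac, 4.06 (percentile 78.7) in SB Kac and 3.99 (percentile 51.9) in SB Kbz. These percentiles were below the coding gene median in every list. When peaks had to reach a −log10 q of 5, the TSS peak of TRIB3 dropped out of control Kac and Kbz, and that of SESN2 out of Kbz. The strongest control Kac peak of the window was instead a region starting at -9696 bp relative to the TSS (chr20:371064-375592, percentile 88.6). In SB Kac the same region held 2 separate peaks, at percentiles 26.6 and 41.4, and in Kbz 1 peak of 340 bp at percentile 1.56. Nearer the outermost start, a low ranked SB Kac peak (chr20:364874-366712, percentile 22.98) and one of Kbz (chr20:364858-365668, percentile 12.1) overlapped each other but no control Kac peak, and this was the one Kbz peak of the 14 without control Kac. Apart from that control Kac region, each distal peak ranked below the TSS peak of its own list.

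SESN2 encodes a leucine sensor that restrains mTORC1, and lies at chr1:28259518-28282491 on the plus strand. The peak at its TSS had a fold of 4.46 (percentile 87.1) in control Kac, 3.61 (percentile 70.8) in SB Kac and 3.55 (percentile 37.5) in SB Kbz. It had the lowest SB Kac and the lowest Kbz percentile of the 10 genes. The SB Kac peak (chr1:28258369-28269359) ran over 10991 bp and joined what were 3 control Kac peaks of 7203, 793 and 283 bp. Since the fold is an average over a broad peak, the longer SB Kac peak and its lower fold are not independent. Kbz took up only 2 places inside this region, 2799 bp over the TSS and 508 bp starting 7395 bp into the gene (percentile 35.6).

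DDIT4 encodes REDD1, an inhibitor of mTORC1, and is a short gene at chr10:72273919-72276036 on the plus strand. The peak at its TSS had a fold of 5.30 (percentile 95.5) in control Kac, 5.25 (percentile 91.3) in SB Kac and 4.89 (percentile 73.5) in SB Kbz. The control Kac peak (chr10:72242706-72280511) was a domain of 37806 bp reaching 31218 bp upstream of the TSS, and only 7 of the 70326 control Kac peaks were longer. This domain was examined further after its length had been seen. SB Kac occupied 83.4% of it in 4 pieces, 31.5 kb in all, with gaps of 1300, 1334 and 2289 bp between them. Kbz occupied 25.6% of it in 6 peaks, 9.67 kb in all. The longest was the TSS peak of 4018 bp, but the highest ranked was an upstream peak of 2158 bp at chr10:72259696-72261853 (percentile 87.6). The start of a noncoding gene was also under the TSS peak.

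**Figure D3:**
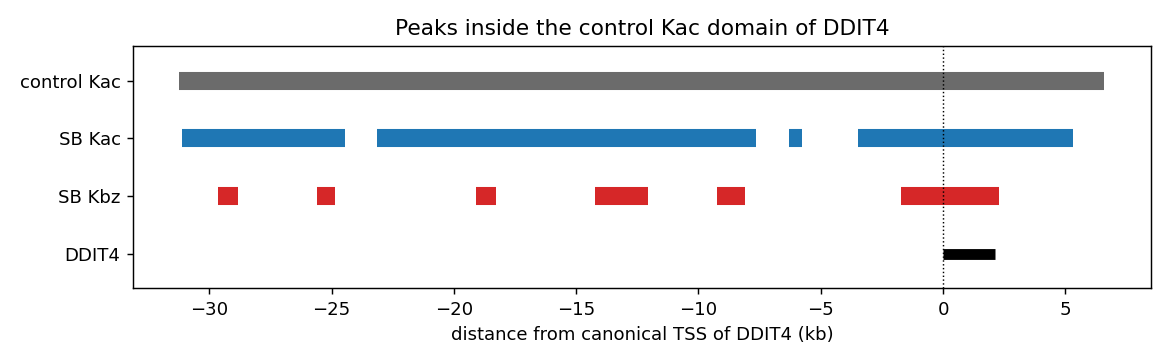
Peaks of control Kac (grey), SB Kac (blue) and SB Kbz (red) inside the control Kac domain of DDIT4, as distance from the DDIT4 TSS in kb, with the gene in black. The single control Kac peak corresponds to 4 SB Kac pieces and 6 Kbz peaks, of which 1 lies over the gene.

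Control Kac and SB Kac were next compared over the 10 genes, the comparison that bears on whether SB was accompanied by a change in acetylation. Of the 21 control Kac peaks, 16 overlapped an SB Kac peak (76.2%, Wilson 95% interval 54.9 to 89.4), against 64.7% of all control Kac peaks. Of the 18 SB Kac peaks, 15 overlapped a control Kac peak (83.3%, interval 60.8 to 94.2), against 72.5% of all. The intervals include the shares of the whole lists, but they are no test. They cover counting error only and treat peaks of the same gene as independent. None of the peaks without a partner lay over a canonical TSS, but that of HERPUD1 lay over another annotated start of the gene. They belonged to HERPUD1, TRIB3, CHAC1 and SESN2, and had median percentiles of 20.7 for the 5 control Kac peaks and 22.98 for the 3 SB Kac peaks.

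The percentile of the TSS peak was lower in SB Kac than in control Kac at 6 of the 10 genes, with a median difference (SB Kac minus control Kac) of -1.56. The lowest differences were at SESN2 (-16.3), DDIT3 (-11.1), CHAC1 (-8.66) and DDIT4 (-4.22). The highest were at TRIB3 (4.53) and ATF4 (2.43). The paired peaks also differed in length, as at DDIT4, with 37806 bp in control Kac and 8813 bp in SB Kac. Since the fold is averaged over a peak, its percentile is not independent of where the peak caller set the borders. Over 11159 coding genes with both peaks the median difference was 2.56, with 9 of the 10 genes below it, and 34.4% of the coding genes were below 0. A gene near the top of a list has little room above it, so coding genes of like rank were also taken, a comparison added after the values were seen. Among coding genes within the control Kac range of the 10 genes the median was 1.37 (n = 8192), with 7 of the 10 genes below it. For the 8 genes at or above percentile 90 in control Kac, 5 were below the median of -0.129 of 3734 coding genes. That last count leaves out SESN2, which had the lowest difference, and TRIB3, which had the highest.

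Kbz lay almost wholly inside Kac at these genes. Of the 30399 bp of Kbz in the windows, 98.9% was under SB Kac and 96.2% under control Kac, against 93.6% and 92.4% of the whole Kbz list. All 14 Kbz peaks overlapped SB Kac (interval 78.5 to 100%), and 93.7% of all Kbz peaks did. Conversely, 12 of the 18 SB Kac peaks overlapped Kbz (66.7%, interval 43.7 to 83.7), against 33.8% of all SB Kac peaks, and 49.95% of the SB Kac bases were under Kbz against 26.2% of all. These shares are not like for like, since 10 of the 18 peaks lay over a TSS and the whole list holds peaks of any place. Of 12091 coding genes with an SB Kac peak over the TSS, 9121 also had a Kbz peak over it. The 10 genes differed widely in the share of SB Kac bases under Kbz. Kbz covered 92.7% of the SB Kac bases at XBP1, 92.0% at ASNS and 88.9% at HERPUD1, but 25.9% at SESN2 and 27.5% at TRIB3. The 6 SB Kac peaks without Kbz were all away from the TSS.

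The rank of the TSS peak was then compared between Kbz and SB Kac. The percentile in Kbz minus that in SB Kac had a median of -19.8 over the 10 genes and -18.0 over 9121 coding genes. HERPUD1 (-0.115), CHAC1 (0.490) and ATF4 (0.599) kept their rank, which 93.3%, 94.4% and 94.7% of these coding genes fell short of. The differences at SESN2 (-33.3), ASNS (-29.3), TRIB3 (-26.8) and XBP1 (-23.8) were the lowest of the 10 genes, but they ranked at percentiles 22.96, 28.9, 33.1 and 38.1 of the coding gene differences and so were ordinary among them. The Kbz list is shorter than the SB Kac list, so a difference in percentile is read only against the coding genes. The median Kbz peak was 55.8% as long as the SB Kac peak, against 64.7% for coding genes.

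The narrower reach of Kbz was seen on both sides of the TSS. At 1 kb upstream both Kac lists covered 9 genes and Kbz covered 7, and at 1 kb downstream they covered 8 and 5. Moving upstream, 5 or fewer genes were covered from 2150 bp in both Kac lists and from 1100 bp in Kbz. Moving downstream the corresponding distances were 1200 bp in control Kac and 1550 bp in SB Kac, and 1000 bp in Kbz. Coding genes were also covered least by Kbz, at 20.6% of genes 1 kb upstream, where control Kac covered 42.0% and SB Kac 39.9%.

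**Figure D4:**
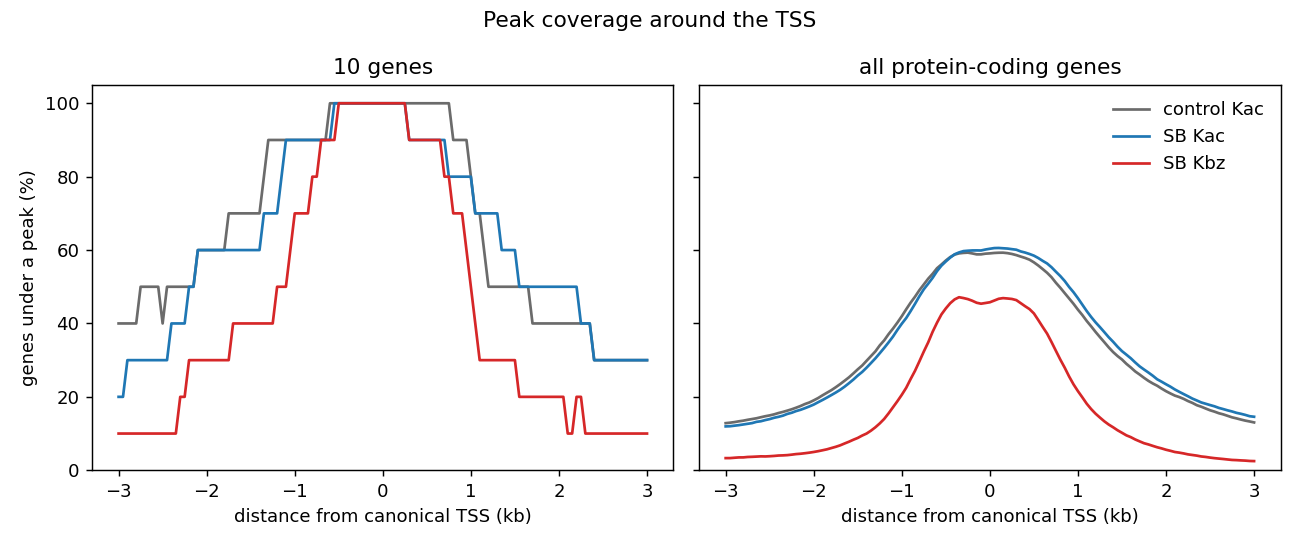
Percent of genes under a peak at each distance from the canonical TSS (kb, transcription to the right), for the 10 genes at the left and all protein-coding genes at the right. All 10 genes are covered at the TSS in each list, and Kbz (red) falls away closer to the TSS than control Kac (grey) and SB Kac (blue) in both panels.

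Over the whole windows, 217.7 kb in all, control Kac covered 29.6%, SB Kac 27.6% and Kbz 14.0%. Per gene, the medians were 29.2%, 23.6% and 11.8%. Protein-coding genes with windows in the same range of length (n = 10160) had medians of 12.7%, 12.3% and 5.15%. DDIT4 was at the top for Kac, with 95.7% in control Kac and 72.7% in SB Kac, and ASNS at the bottom with 4.61% and 4.22%. SB Kac covered more than control Kac at DDIT3 (42.4% against 33.3%) and SESN2 (38.7% against 30.8%), and less at the other 8 genes. The gap was widest at DDIT4 and CHAC1 (21.6% in SB Kac against 35.4% in control Kac).

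**Figure D5:**
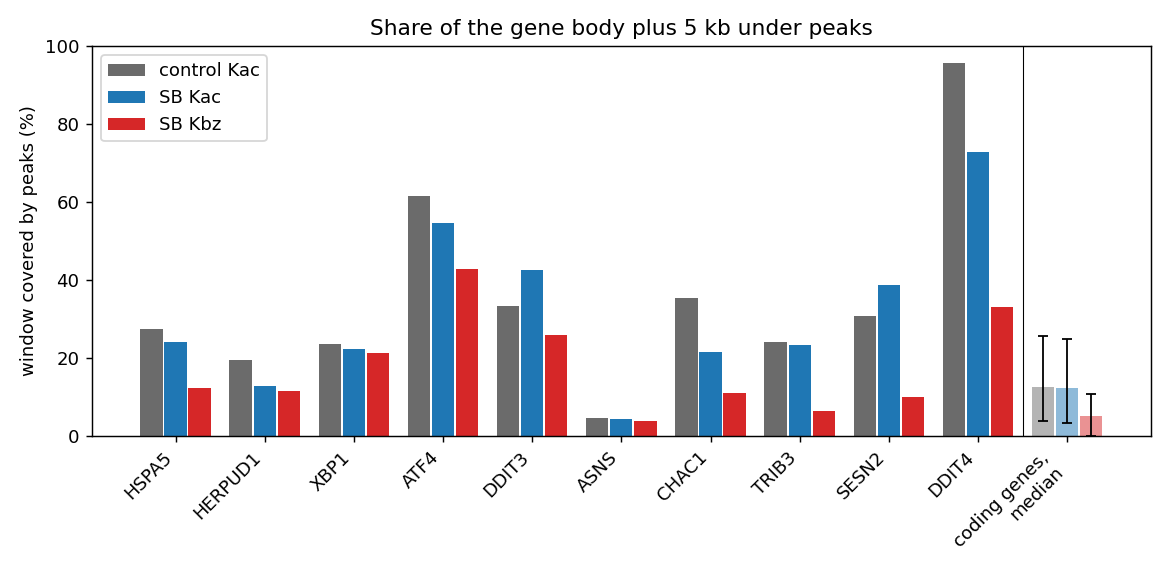
Percent of each window (gene body plus 5 kb on either side) covered by peaks of control Kac (grey), SB Kac (blue) and SB Kbz (red), with the median and quartiles of protein-coding genes of like window length at the right. Only ASNS is below the coding gene median in all lists, and Kbz has the smallest share in each gene.

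Of 62 further genes of the same pathways, 61 had a promoter peak in control Kac and 62 in SB Kac, and 59 in Kbz, to be read against the 76.5%, 75.7% and 64.6% of coding genes given above. A peak over the canonical TSS was present at 55, 57 and 52 of them. All 9 genes of stress sensing and eIF2 phosphorylation, all 8 further transcription factors and all 9 aminoacyl-tRNA synthetases had a promoter peak in every list. Of 13 chaperone and folding genes the counts were 12, 13 and 12, of 8 degradation genes 8, 8 and 7, of 12 amino acid synthesis and transport genes 12, 12 and 11, and of 3 stress hormones 3 in each list. PDIA3, a disulfide isomerase, had promoter Kac in the SB list only, at percentile 31.9. DERL3, a degradation factor, and SLC7A5, a leucine transporter, had promoter Kac in both lists but no promoter Kbz. The highest promoter Kbz percentiles were at ATF5 (99.5), GDF15 (99.0) and PSAT1 (97.2), a transcription factor, a stress hormone and a serine synthesis enzyme. At GDF15 this peak was within 3 kb of a start but not over the canonical TSS. The 10 genes were thus not alone in carrying both marks, as nearly all genes of these pathways did.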

How the data were processed

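ChIP-seq of HepG2 cells comprised 6 libraries in 6 groups (1 library per group), and 3 peak lists were used. According to the study and the submitters' processing notes, the authors aligned single 50 bp reads to hg38 with Bowtie2 2.2.6, kept uniquely mapped reads, removed duplicates with SAMtools 0.1.19 and called peaks with MACS2 2.1.1 at an FDR of 0.01. The broad format joins neighbouring enriched stretches, and the broad setting and background track are not given in the sources used here. The deposited values per peak are a display score, which was not used, the fold (a linear ratio over background, averaged over the peak), and −log10 p-value and −log10 q-value, used only as thresholds. The highest q in the deposited lists was 0.0487, 0.0494 and 0.0485 (control Kac, SB Kac, SB Kbz), beyond the stated FDR. No read totals are given with the peaks, so a deeper library could give more and longer peaks from the same chromatin.

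Peaks were overlapped (at least 1 bp) with GENCODE 44 genes on 24 chromosomes, leaving out 3 peaks of control Kac that lay elsewhere. The canonical TSS is that of the Ensembl canonical transcript, and medians over members are beside those of protein-coding genes. Motifs were searched in hg38 and RefSeq promoters. All 10 genes were named. Of the pathway list the rule named genes with no promoter peak, with promoter Kac in 1 Kac list only, and the 3 highest in Kbz, and DERL3 and SLC7A5 were named after their values were seen. The members and lists were chosen with earlier results of these data known. Intervals are Wilson 95%. Python 3.11.15, numpy 2.4.6, pysam 0.24.0, statsmodels 0.14.6, matplotlib 3.10.9 and bedtools 2.31.1 were used. On simulated data, 1000 of 1000 planted overlaps were found and 0 of 1000 queries placed beside peaks were called, and 0 of 6 counts differed from bedtools. Alternatives changed peak thresholds, peak number, joining, overlap, window, promoter, background genes and motif form.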

Additional observations from a re-analysis of the deposited data

How the results depend on the processing

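Of 181 values recomputed for 28 results, 148 stayed close to the reported value by a wide rule and 33 moved. A median percentile counted as close anywhere between the second lowest and the second highest of the 10 genes. For counts the rule was also wide, so that 26 SB Kac peaks with 10 kb flanks counted as close to the reported 18. Over the gene body plus 5 kb, between 8 and 10 of the 10 genes had a peak in each list under every alternative run. The background shares (control Kac, SB Kac, SB Kbz) were 81.2%, 79.2% and 70.2% at a −log10 q of at least 2, 61.7%, 65.8% and 52.7% at 5, 52.7%, 60.1% and 60.7% for the 15000 strongest peaks, 52.2%, 50.4% and 38.7% over all annotated genes, 84.5%, 83.1% and 75.2% with 10 kb flanks, 78.3%, 77.4% and 65.3% with no flank, and 80.5%, 79.4% and 69.3% among genes of like window length. At the threshold of 5 there were 11 peaks of control Kac in the windows, 11 of SB Kac and 8 of Kbz, the share of control Kac peaks shared with SB Kac was 90.9%, and the median percentile of the strongest peak was 83.1 in control Kac and 73.5 in SB Kac. With 15000 peaks there were 10 control Kac and 10 SB Kac peaks, the share was 90% and the medians were 77.8 and 71.8. The Kbz median, reported as 73.3, was 59.8 at 5 and 56.8 with 15000 peaks, which counted as close. Fewer peaks enter by construction. Under these stricter lists TRIB3 had no TSS peak in control Kac, nor at 5 in Kbz, where SESN2 also had none, nor with 15000 peaks in SB Kac. The TSS background was then 42.4%, 49.8% and 33.7% at 5, and 35.0%, 45.2% and 39.4% with 15000 peaks. The composite element was matched at 7 genes when the Kbz peak was searched in place of the promoter, a search chosen after seeing the data, and the longer sequence gives more matches by construction. No paired analysis was possible because there was a single library in every group and nothing was tested, and for the same reason no replicate could be left out. Depth is unknown, so a missing peak is one not detected in that library.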
